A study of Mus musculus with 12 samples.

Results

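CC chemokines are small secreted proteins that draw leukocytes toward a source, and the RNAs of 10 of them were followed here in bone marrow-derived macrophages (BMDMs). The 10 genes are Ccl2, Ccl3, Ccl4, Ccl5, Ccl6, Ccl7, Ccl9, Ccl12, Ccl22 and Ccl24, taken by symbol from 23997 genes, of which 24 carry a CC chemokine symbol. BMDMs were grown from the marrow of male C57BL/6 mice aged 8 to 10 weeks, kept in recombinant human macrophage colony-stimulating factor at 10 ng/ml for 7 d. Sequencing covered 4 groups of 3 libraries each, namely wild-type (WT) and Pim1-/- cells, each either untreated or given lipopolysaccharide (LPS) at 100 ng/ml for 4 h. Pim1 encodes a serine/threonine kinase, and the Pim1-/- mice carry a germline deletion made with CRISPR/Cas9, so the deletion is not limited to macrophages. The labels do not say whether libraries of a group come from separate mice or cultures, so the p-values below measure only the spread between these libraries.

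LPS is a bacterial cell wall component that Toll-like receptor 4 senses. Through the adaptors MyD88 and TRIF it activates NF-κB and the interferon regulatory factor IRF3, and both routes are known to induce chemokine genes in macrophages. Each CC chemokine acts on G protein-coupled CCR receptors of other leukocytes: CCL2, CCL7 and CCL12 call monocytes through CCR2, CCL3, CCL5, CCL6 and CCL9 can act through CCR1, CCL22 through CCR4 on T cells, and CCL24, also called eotaxin-2, through CCR3 on eosinophils. Ccl24, Ccl22 and Ccl17 are also known as genes of alternatively activated macrophages, which interleukin 4 induces through the factor STAT6.

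The family is named for a pair of adjacent cysteines near the start of the mature protein. The codons of that pair are shown in capitals with 24 bases of coding sequence on either side, from the GENCODE M21 transcripts of each gene on GRCm38 because they show how the members differ around the feature they share. In Ccl24, which has an earlier pair of adjacent cysteine codons as well, the later pair is shown.
Ccl2: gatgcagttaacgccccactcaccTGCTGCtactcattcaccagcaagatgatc
Ccl7: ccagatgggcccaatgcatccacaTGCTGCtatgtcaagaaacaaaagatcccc
Ccl12: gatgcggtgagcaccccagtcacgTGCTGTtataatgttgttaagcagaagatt
Ccl24: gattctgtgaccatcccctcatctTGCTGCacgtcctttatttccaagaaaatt
Ccl22: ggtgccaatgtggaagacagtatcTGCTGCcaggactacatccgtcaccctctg
Ccl3: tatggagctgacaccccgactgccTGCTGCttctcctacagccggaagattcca
Ccl4: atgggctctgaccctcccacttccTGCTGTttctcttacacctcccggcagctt
Ccl5: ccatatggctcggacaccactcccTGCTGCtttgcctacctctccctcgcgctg
Ccl6: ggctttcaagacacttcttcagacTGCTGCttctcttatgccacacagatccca
Ccl9: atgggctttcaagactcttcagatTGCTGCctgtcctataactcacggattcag

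Ccl6 and Ccl9 shared 70.7% of the 345 coding bases that aligned, and Ccl2 and Ccl7 shared 73.4% of 293. Such values were not particular to neighbours. Ccl2 shared 74.2% of 271 aligned bases with Ccl4 and 69.7% of 277 with Ccl22, which lies on another chromosome. The lowest value, 54.5% of 332, was that of Ccl6 and Ccl24. Among stretches of 50 bases, 59 of 2957 in the Ccl9 transcripts also occurred in transcripts of other genes, and none in those of the other 9 members did. Of the members, 8 lie in 2 blocks of chromosome 11 (GRCm38, GENCODE M21). Ccl2 (chr11:82035571-82037453), Ccl7 (chr11:82045712-82047525) and Ccl12 (chr11:82101845-82103400) stand on the plus strand, next to Ccl8 (chr11:82115185-82116799), which was not among the 10. Ccl5 (chr11:83525778-83530518), Ccl9 (chr11:83572919-83578636), Ccl6 (chr11:83587882-83593087) and Ccl3 (chr11:83647844-83649355) lie on the minus strand, with Ccl4 (chr11:83662584-83664683) on the plus strand beyond them. Ccl22 lies on chromosome 8 (chr8:94745590-94751699) and Ccl24 on the minus strand of chromosome 5 (chr5:135569937-135573049). E230016K23Rik, which runs antisense to Ccl6, was at most 0.144 FPKM in any library, where FPKM is the fragment count scaled by transcript length and library size.

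The bases just upstream of the start were shown for neighbours that are compared below, as RefSeq gives them on GRCm38.p6. Of the 10 members 5 had an entry in the promoter table. In Ccl12 (chr11:82101715-82101844) and its neighbour Ccl8 (chr11:82115055-82115184) the capitals mark the upstream bases of a stretch of 36 aligned bases with 77.8% identity, which begins with TATAAA in both.
Ccl12: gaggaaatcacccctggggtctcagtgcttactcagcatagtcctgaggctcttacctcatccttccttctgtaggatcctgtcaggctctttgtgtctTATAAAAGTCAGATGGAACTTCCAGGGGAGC
Ccl8: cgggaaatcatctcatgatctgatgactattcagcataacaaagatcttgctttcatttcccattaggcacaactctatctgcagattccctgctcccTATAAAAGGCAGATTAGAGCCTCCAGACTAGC
In Ccl9 (chr11:83578637-83578766, minus strand) and Ccl6 (chr11:83593088-83593217, minus strand) the capitals mark their longest common run of 13 bases.
Ccl9: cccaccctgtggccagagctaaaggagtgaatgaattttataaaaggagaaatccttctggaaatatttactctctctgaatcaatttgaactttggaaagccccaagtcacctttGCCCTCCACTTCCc
Ccl6: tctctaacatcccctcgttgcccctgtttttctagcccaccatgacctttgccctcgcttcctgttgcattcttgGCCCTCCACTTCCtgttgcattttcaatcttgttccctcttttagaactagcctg
Searched on both strands of the 250 bases upstream, TATAAA occurred in 12.4% of 32851 promoters, and a simple NF-κB motif, GGGNNNNNCC, occurred in 45.8%. The NF-κB letters occurred 2 times in Ccl22 and 1 time in Ccl9, and were not found in these windows of Ccl3, Ccl6 or Ccl12. The windows of Ccl22 and Ccl3 held no TATAAA, and that of Ccl9 held 3, of which 2 overlap on opposite strands and none overlaps the NF-κB letters. A match is a description of the letters only.

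The libraries held an estimated 36000000 to 46300000 fragments assigned to genes. Pim1 itself, the deleted gene, was lower in the Pim1-/- libraries but not at 0. It was 21.5 to 25.0 FPKM in untreated WT cells, 8.00 to 9.51 FPKM in untreated Pim1-/- cells, 630 to 665 FPKM in WT cells after LPS and 205 to 236 FPKM in Pim1-/- cells after LPS. Gene-level values do not show which part of the gene the remaining signal comes from. Macrophage markers were high, with Lyz2 between 12605 and 27492 FPKM, while 9 markers of macrophages summed to 27850 to 31590 FPKM in WT libraries and 14411 to 17845 FPKM in Pim1-/- libraries. Lyz2 made up most of each sum. Over the 9 markers the difference of Pim1-/- minus WT cells on log2(FPKM + 1) ranged from -1.67 to -0.06 without LPS. After LPS it ranged from -2.14 to -0.13. In whole-culture RNA, fewer cells of a type and less RNA per cell cannot be told apart, and the part of this marker difference in the results below was not tested. Markers of eosinophils (6 genes, Epx among those at 0) summed to at most 1.32 FPKM in any library, and those of neutrophils (7 genes) to at most 8.22 FPKM. Stromal cell markers (7 genes) were low but differed between genotypes, with sums of 2.84 to 3.33 FPKM in WT and 0.868 to 1.09 FPKM in Pim1-/- cells without LPS, and of 11.3 to 11.5 and 2.98 to 3.75 FPKM after it. Most of this rise with LPS was Pdgfrb, whose mean went from 0.164 to 7.10 FPKM in WT and from 0.0718 to 2.16 FPKM in Pim1-/- cells. Col1a1 averaged 0.540 and 0.506 FPKM in WT cells without and after LPS. The T, NK and B cell list held 10 genes, of which 6 or 7 were at 0 in all 3 libraries of a group. Its untreated sums were 4.83 to 5.40 FPKM (WT) and 0.677 to 0.698 FPKM (Pim1-/-). With LPS they were 2.46 to 3.12 and 0.573 to 0.961 FPKM. Nearly all of the WT sums was Cd4, with means of 4.96 FPKM untreated and 2.57 FPKM after LPS. Cd4 means for Pim1-/- libraries were 0.432 and 0.310 FPKM. Klrb1c went the other way, averaging 0.0770 (WT) and 0.2425 FPKM (Pim1-/-) untreated, and 0.122 and 0.443 FPKM after LPS. Cd3e, Cd3g, Cd8a and Ncr1 were at 0 in every library. After LPS the dendritic cell list (10 genes, nearly all of it H2-Ab1) summed to 160 to 170 FPKM in WT libraries and 68.6 to 75.0 FPKM in Pim1-/- cells, and the mast cell and basophil list (7 genes, nearly all of it Hdc) to 49.8 to 51.3 and 29.4 to 33.6 FPKM, with Flt3 and Fcer1a, which define those cells, at or near 0. The part of these lists in the genotype differences below, which they accompany, was not tested.

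To see how the chemokines answered LPS, the treated libraries were compared with the untreated ones of the same genotype. In WT cells the summed level of the 10 RNAs was 323 to 347 FPKM untreated and 44384 to 46741 FPKM after LPS, and in Pim1-/- cells 278 to 308 FPKM and 47830 to 50414 FPKM. Their share of all FPKM went from at most 0.0709% to between 5.28% and 5.503% in WT, and from at most 0.0653% to between 6.59% and 6.78% in Pim1-/- cells. A gene counts as called when it differed more than 2-fold on log2(FPKM + 1) with p under 0.05 and a false discovery rate under 0.1 in limma. Of the 10 members 9 rose past these thresholds in each genotype, where 20.1% of 10581 genes tested rose in WT and 14.6% in Pim1-/- cells. Of the 10, 3 (Ccl12, Ccl22 and Ccl24) reached 1 FPKM in no untreated library and entered the test through the LPS-treated libraries, so that their rise was bound to appear. Among the 7 that were at 1 FPKM or more in all 12 libraries, 6 rose in each genotype, with a median log2 difference over the 7 of 7.72 in WT and 7.87 in Pim1-/- cells, beside 0.00 and -0.01 over all genes tested.

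**Figure D1:**
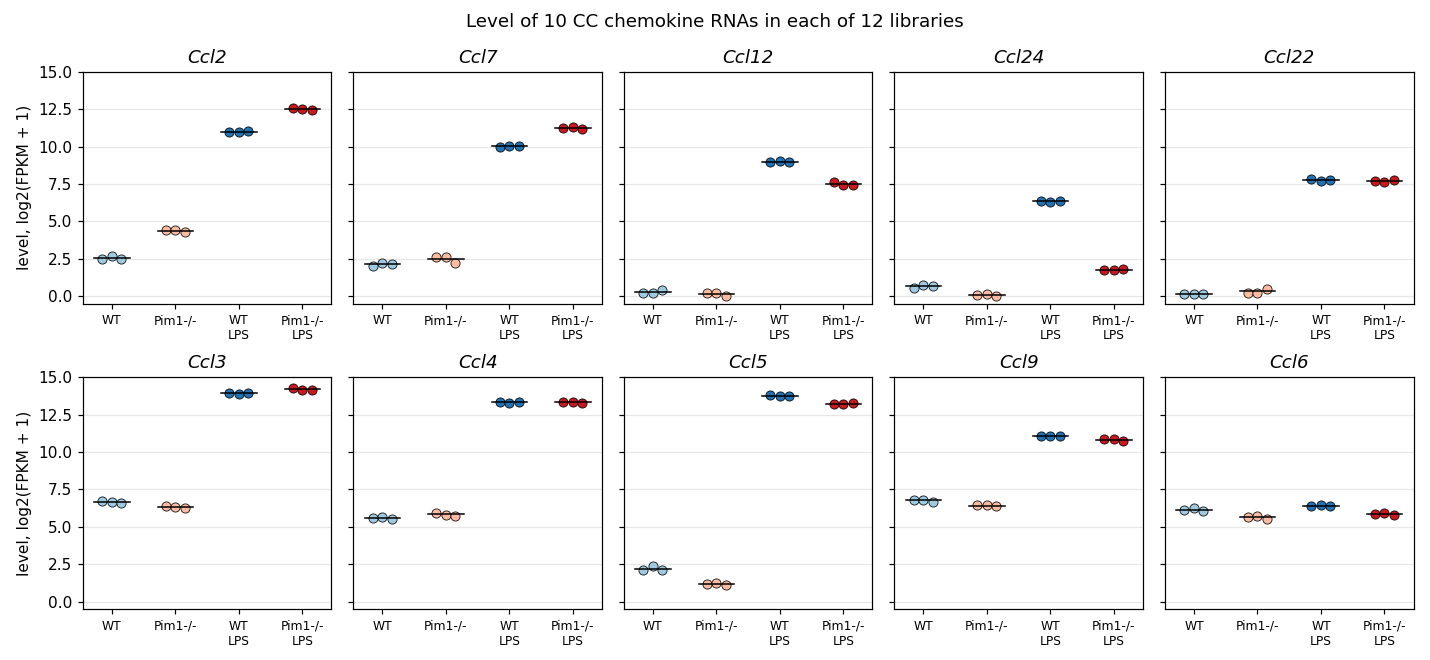
The level of each CC chemokine RNA, as log2(FPKM + 1), is plotted for 3 libraries in each of 4 groups, with a line at the group mean. Ccl24 in Pim1-/- cells after LPS stays between 2.34 and 2.60 FPKM, while its 3 WT libraries lie between 78.7 and 81.5 FPKM, and Ccl6 lies between 45.8 and 85.5 FPKM in all 12 libraries.

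Ccl5, a chemokine of T cells and monocytes that also responds to interferon, had the largest log2 difference of the 10. It was 3.22, 4.16 and 3.40 FPKM in untreated WT cells and 14087, 13569 and 13629 FPKM after LPS. The difference on log2(FPKM + 1) was 11.55 ± 0.06 (SE, n = 3 and 3) in WT and 12.05 ± 0.06 in Pim1-/- cells. Ccl3 and Ccl4, the macrophage inflammatory proteins 1α and 1β, were also among the most abundant members after LPS, Ccl3 being the highest in both genotypes. Ccl3 went from 103, 98.9 and 96.7 FPKM to 16045, 14847 and 15620 FPKM in WT cells, and Ccl4 from 47.6, 48.9 and 45.3 FPKM to 10498, 9863 and 10145 FPKM. Both were therefore present before LPS, unlike Ccl22, which was 0.0982, 0.123 and 0.0983 FPKM in untreated WT cells and 226, 212 and 217 FPKM after LPS.

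Ccl9 and Ccl6, the neighbours on chromosome 11 whose proteins both act on CCR1, parted from each other after LPS. Ccl9 was 102 to 111 FPKM in untreated WT cells and 2123 to 2152 FPKM after LPS, a log2 difference of 4.30 ± 0.05, and by 4.40 ± 0.05 in Pim1-/- cells. Ccl6 was 68.9, 74.1 and 66.6 FPKM in untreated WT cells and 81.2, 85.5 and 82.7 FPKM after LPS, a log2 difference of 0.25 ± 0.06 that did not reach 2-fold, and its direction turned when libraries were scaled to reference genes, to Actb or to the estimated total fragments, or quantile normalized. The ratio of Ccl9 to Ccl6 within a library was 1.54 ± 0.05 (SD, n = 3) in untreated WT cells and 25.7 ± 0.84 after LPS, and 1.73 ± 0.10 and 31.3 ± 1.02 in Pim1-/- cells. Such a ratio does not change with a scaling factor applied to the whole library.

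**Figure D2:**
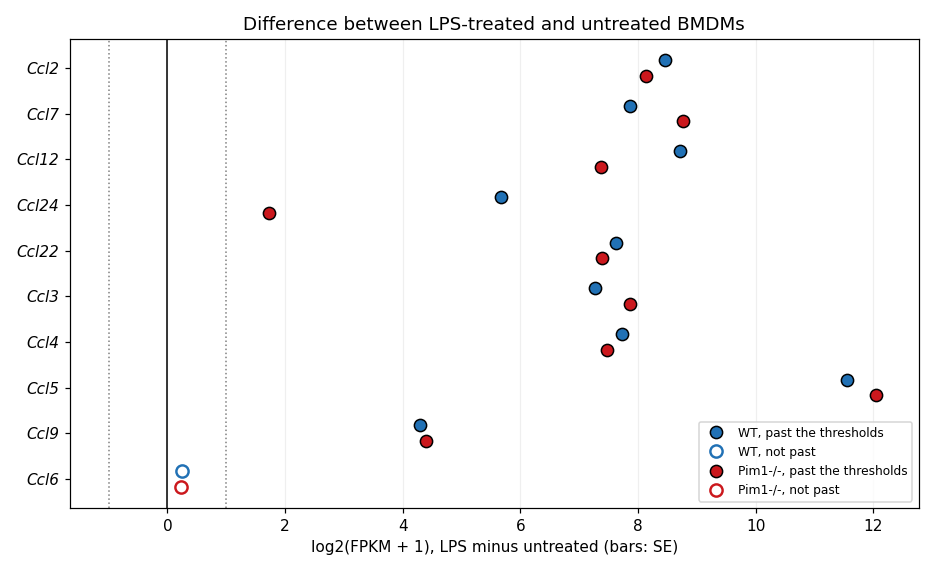
The difference in log2(FPKM + 1) between LPS-treated and untreated cells is plotted for each member in WT (blue) and Pim1-/- cells (red), with the SE as a bar, filled where the thresholds were passed, and dotted lines at 2-fold. Ccl6 lies near 0 in both genotypes, and Ccl24 shows 5.67 in WT against 1.73 in Pim1-/- cells.

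In order of level, which FPKM allows because it is per length, untreated WT cells had Ccl9 and Ccl3 first with overlapping values, then Ccl6, Ccl4, Ccl2, Ccl5 and Ccl7 (overlapping), Ccl24, Ccl12 and Ccl22. After LPS the WT order was Ccl3, Ccl5, Ccl4, Ccl9, Ccl2, Ccl7, Ccl12, Ccl22, Ccl6 and Ccl24, and among neighbours only the values of Ccl6 and Ccl24 overlapped. In Pim1-/- cells after LPS, Ccl3 was again first and Ccl24 last, Ccl4 and Ccl5 overlapped, Ccl2 and Ccl7 stood above Ccl9, and Ccl22 above Ccl12.

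The genotypes were compared first without LPS. Ccl2 was higher and Ccl5 lower in Pim1-/- cells past the thresholds, so 1 member rose and 1 fell, where 4.4% of genes tested were called higher and 3.37% lower. Ccl2, the main CCR2 ligand, was 4.63, 5.33 and 4.73 FPKM in WT libraries and 20.6, 20.3 and 18.3 FPKM in Pim1-/- cells, without overlap, a log2 difference of 1.82 ± 0.05 (limma adjusted p = 1.3e-13). Ccl5 was 3.22, 4.16 and 3.40 FPKM in WT libraries and 1.23, 1.39 and 1.19 FPKM in Pim1-/- cells, a log2 difference of -1.01 ± 0.06 (adjusted p = 8.3e-10). This value lies at the 2-fold threshold, and without WT replicate 2 or Pim1-/- replicate 3 it was -0.93 and -0.99 and was not called. Ccl7, which lies next to Ccl2, was 3.15 to 3.78 FPKM in WT libraries and 3.68 to 5.29 FPKM in Pim1-/- cells, so its groups overlapped before LPS.

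Of the remaining members, Ccl3, Ccl6 and Ccl9 were lower in Pim1-/- cells without LPS by less than 2-fold, with log2 differences of -0.33, -0.51 and -0.35, and Ccl4 was higher by 0.23. In each of the 4 the 3 values of one genotype lay apart from those of the other, as they did for 78.4% of genes tested, and under scaling to Actb the differences of Ccl3 and Ccl9 turned to 0.03 and 0.01. Ccl12 and Ccl22 were below 0.5 FPKM in every untreated library. Ccl22 was higher in Pim1-/- cells by 0.19 ± 0.07, without overlap. Ccl12 rested on an estimated 0 to 5 fragments per library, and no difference in it was detectable at this depth.

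After LPS, 4 of the 10 members were called between genotypes, 2 higher (Ccl2 and Ccl7) and 2 lower (Ccl12 and Ccl24) in Pim1-/- cells, where 3.51% of genes tested were called higher and 5.15% lower. The 3 CCR2 ligands thus did not move one way. Ccl2 was 2041, 2049 and 2085 FPKM in WT libraries and 6039, 5837 and 5548 FPKM in Pim1-/- cells, a log2 difference of 1.495 ± 0.054 (adjusted p = 1.5e-12). Ccl7 was 1028, 1037 and 1059 FPKM in WT libraries and 2458, 2542 and 2350 FPKM in Pim1-/- cells, a log2 difference of 1.23 ± 0.09 (adjusted p = 3.7e-09). Both genes had all Pim1-/- values more than 2-fold above all WT values.

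Ccl12, the third CCR2 ligand and the next member along the chromosome, was 501, 518 and 499 FPKM in WT libraries and 196, 176 and 175 FPKM in Pim1-/- cells after LPS, a log2 difference of -1.47 ± 0.07 (adjusted p = 5e-11). The genotypes did not overlap, as they did not for 77.5% of genes tested, and Ccl12 was 2.78-fold lower by the group means. Within a library, Ccl2 stood 4.07 ± 0.11-fold (SD, n = 3) above Ccl12 in WT and 31.9 ± 1.25-fold above it in Pim1-/- cells after LPS, a contrast between genes of one block that no scaling factor of a library changes. Ccl2 to Ccl7 was 1.98 ± 0.01 in WT and 2.37 ± 0.08 in Pim1-/- cells.

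**Figure D3:**
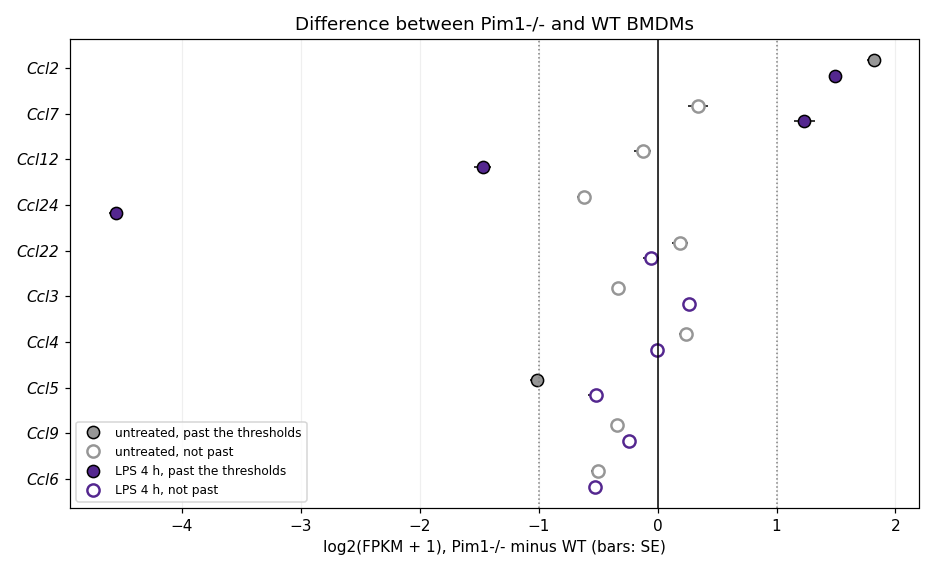
For each member the plot gives the log2(FPKM + 1) of Pim1-/- minus that of WT cells, without LPS (grey) and after LPS (purple), with the SE as a bar and dotted lines at 2-fold. Ccl2 lies right of the upper line under both conditions and Ccl7 only after LPS, while after LPS Ccl12 and Ccl24 lie left of the lower line, at -1.47 and -4.56.

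Ccl3, Ccl4, Ccl5, Ccl6 and Ccl9 were not called between genotypes after LPS. Ccl3 was higher in Pim1-/- cells by 0.26 ± 0.05 on the log2 scale, with 19690, 18184 and 18018 FPKM beside the WT values given above. Ccl5 was lower by 0.52, at 9559, 9299 and 9938 FPKM. Its values lay apart from those of WT cells, and within a library the ratio of Ccl2 to Ccl5 was 0.150 ± 0.004 in WT and 0.606 ± 0.04 in Pim1-/- cells (SD, n = 3). Ccl4 was 10347, 10235 and 9801 FPKM in Pim1-/- cells, which overlapped with WT, and its log2 difference was -0.01 ± 0.05 (adjusted p = 0.923). Ccl6 and Ccl9 differed by -0.52 and -0.24.

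Ccl22, which attracts T cells with CCR4, was 226, 212 and 217 FPKM in WT libraries and 208, 201 and 221 FPKM in Pim1-/- cells after LPS, with overlap and a log2 difference of -0.06 ± 0.07 (adjusted p = 0.454). Its neighbour Ccl17, the other CCR4 ligand, was 73.4, 76.8 and 74.6 FPKM in WT libraries and 265, 229 and 238 FPKM in Pim1-/- cells after LPS, a log2 difference of 1.69 ± 0.05 (adjusted p = 5.3e-13). The ratio of Ccl17 to Ccl22 was 0.343 ± 0.019 in WT and 1.16 ± 0.10 in Pim1-/- cells (SD, n = 3). Ccl17 was listed at 0 in all 3 untreated WT libraries.

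Ccl24, the eotaxin of the set, gave the largest difference between genotypes among the members. After LPS it was 81.5, 78.7 and 81.3 FPKM in WT cells and 2.45, 2.34 and 2.60 FPKM in Pim1-/- cells, a log2 difference of -4.56 ± 0.06 (adjusted p = 1e-16). By the group means it was 32.7-fold lower, with a 95% interval of 28.6 to 37.4 that covers counting error only, from an estimated 5874 fragments in WT and 232 in Pim1-/- cells. Without LPS it was 0.483, 0.679 and 0.642 FPKM in WT libraries and 0.0397, 0.0909 and 0 FPKM in Pim1-/- cells, which an estimated 81 and 6 fragments stand behind. The genotypes did not overlap there either, at a ratio of 13.8 with an interval of 6.08 to 38.7, and the log2(FPKM + 1) difference of -0.62 ± 0.06 did not reach 2-fold because 1 FPKM was added, while with 0.1 added it was -2.33 ± 0.18 and was called.

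LPS still raised Ccl24 in Pim1-/- cells. The ratio of treated to untreated means was 134 in WT, with an interval of 107 to 168, and 56.6 in Pim1-/- cells, with an interval of 25.5 to 155, and these intervals overlap. On log2(FPKM + 1) LPS raised it by 5.67 ± 0.06 in WT and by 1.73 ± 0.06 in the Pim1-/- genotype. As Pim1-/- minus WT, the difference in response was therefore -3.94 ± 0.08 (limma adjusted p = 7e-14) with 1 FPKM added and -2.65 ± 0.25 (adjusted p = 4.8e-07) with 0.1 added. The size of this difference depends on the added constant, and the fragment counts in untreated Pim1-/- cells are too few to say how far the fold response differed.

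In the test of the difference in LPS response, 2 of the 10 members were called, Ccl24 and Ccl12, both lower in Pim1-/- cells, where 4.43% of genes tested were called lower and 2.24% higher. Both entered the test through the LPS-treated libraries. None of the 7 members at 1 FPKM or more in all 12 libraries was called. The Ccl12 difference was -1.35 ± 0.10 (adjusted p = 2.2e-08) and became -0.83 ± 0.42 (adjusted p = 0.0971) with 0.1 added, since its untreated values rest on a few fragments. The other 8 had differences between -0.32 for Ccl2 and 0.89 for Ccl7. The Ccl7 difference was called at 1.07 when libraries were quantile normalized or scaled to the estimated total fragments, and at 1.97 relative to Actb. For Ccl7 the response was 7.86 ± 0.09 in WT and 8.76 ± 0.09 in Pim1-/- cells, and for Ccl2 8.45 ± 0.05 and 8.13 ± 0.05. Ccl2 was thus higher in Pim1-/- cells both before and after LPS, by 4.04-fold and 2.82-fold of the group means.

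To set Ccl24 against the other members within each library, the median log2(FPKM + 1) of the other 9, Ccl6 included, was subtracted from that of Ccl24. This relative level was -1.92, -1.91 and -1.80 in untreated WT cells, -4.38, -4.29 and -4.27 in untreated Pim1-/- cells, -4.63, -4.69 and -4.66 in WT cells after LPS and -9.48, -9.57 and -9.35 in Pim1-/- cells after LPS. None of the 4 groups overlapped with another. Against this median Ccl24 fell further behind after LPS in each genotype, with differences of -2.78 in WT and -5.15 in Pim1-/- cells. Its relative level was lower in Pim1-/- than in WT cells, with differences of -2.43 without LPS and -4.81 after it. Each of these 4 differences had an exact two-sided permutation p of 0.1, the smallest that 3 against 3 libraries can give. Their signs held but most of their sizes depended on the reference and the added constant. Against the mean of the other 9 the response was -1.41 in WT, with 0.1 FPKM added it was -1.84 in WT and -2.74 in Pim1-/- cells, and against the median of 7 induced members it was -8.27 in Pim1-/- cells. The difference between untreated genotypes was -0.65 against the mean of the other 9, -0.91 against the 7 members and -4.32 with 0.1 added. Without LPS the median of the other 9 was the value of Ccl2 in both genotypes, and Ccl2 itself differed by 1.82 there, beside -0.62 for Ccl24. After LPS that median was the value of Ccl2 in WT cells but of Ccl7 in Pim1-/- cells. The differences of -4.81 and -5.15 therefore set Ccl24 against different genes in the groups compared. Both Ccl2 and Ccl7 were themselves called higher in Pim1-/- cells after LPS, by 1.495 and 1.23, beside -4.56 for Ccl24. The genotype difference in relative level after LPS stayed between -6.05 and -4.58 under these choices of reference and added constant. Ccl24 was listed with the earlier results of these libraries in view, so its place among the members is a description. The ratio of Ccl22 to Ccl24, both genes of alternatively activated macrophages, was 2.71 ± 0.05 in WT and 85.3 ± 0.59 in Pim1-/- cells after LPS (SD, n = 3).

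**Figure D4:**
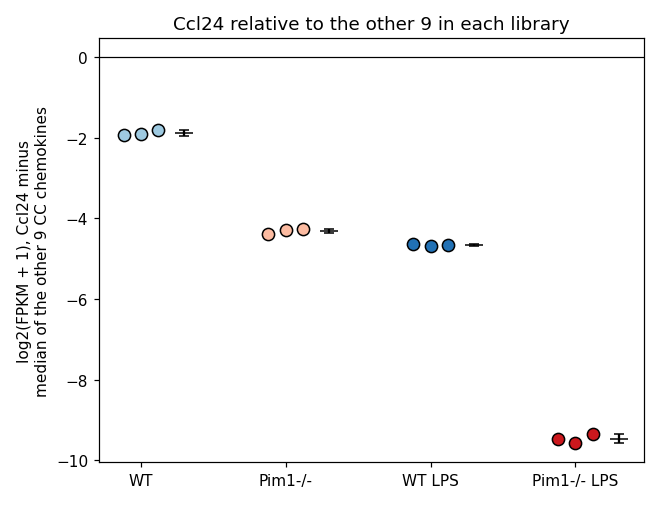
The log2(FPKM + 1) of Ccl24 minus the median of the other 9 CC chemokines is plotted for each library, with the mean and SD of each group beside the points. The lowest group is Pim1-/- after LPS, between -9.57 and -9.35, and WT after LPS lies between -4.69 and -4.63.

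The genes whose pattern over the 12 libraries was most like that of Ccl24, by the root mean square difference of centred log2(FPKM + 1), were Fscn1 (0.58), Cnn3 (0.60), Pfkfb3 (0.66), Dusp1 (0.76) and Cp (0.77). Fscn1, which encodes the actin-bundling protein fascin, averaged 0.578 FPKM in untreated WT, 0.227 in untreated Pim1-/-, 87.1 in WT and 8.34 in Pim1-/- cells after LPS. Pfkfb3, a regulator of glycolysis, averaged 7.20, 4.15, 186 and 27.3 FPKM in the same order. All 5 were distant from Ccl24 compared with the nearest gene of some other members, which lay at 0.06 for Ccl6 (Ids), 0.07 for Ccl9 (Trim30a) and 0.12 for Ccl4 and Ccl22, which were nearest to each other. Ccl2 and Ccl7 were also nearest to each other (0.53), Ccl3 to Usp18 (0.22), Ccl5 to Il1b (0.23) and Ccl12 to Nos2 (0.31). These are descriptions over 12 libraries of shared groups.

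Of the 14 other CC chemokine genes 5 were expressed enough to test, Ccl8, Ccl17, Ccl20, Ccl25 and Ccl27a. Between genotypes after LPS, 1 of the 5 was called higher (Ccl17) and 1 lower (Ccl8), with a median log2 difference of 0.05 beside -0.03 over all genes. Ccl8, which follows Ccl12 on the chromosome, was 45.7, 44.1 and 39.3 FPKM in WT libraries and 7.78, 7.05 and 7.61 FPKM in Pim1-/- cells after LPS, a log2 difference of -2.37 ± 0.10 (limma adjusted p = 1.5e-11). Along this block the 2 genes upstream, Ccl2 and Ccl7, were therefore higher and the 2 downstream, Ccl12 and Ccl8, lower in Pim1-/- cells after LPS, except that under scaling to Actb neither Ccl12 (-0.03) nor Ccl8 (-0.97) was called. Without LPS, Ccl8 averaged 0.711 FPKM in WT libraries and 0.117 FPKM in Pim1-/- cells. Its difference in LPS response was -1.76 ± 0.15 with 1 FPKM added and -0.45 ± 0.48 (adjusted p = 0.434) with 0.1 added, so that this call rested on the added constant.

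Transcripts of some chemokine receptors were also measured in these cells. Ccr1 was 2.64 to 2.72 FPKM in WT libraries and 7.79 to 9.28 FPKM in Pim1-/- cells without LPS, a log2 difference of 1.38 ± 0.06. After LPS it averaged 1.84 and 2.33 FPKM, a difference of 0.23 ± 0.06 that was not called, and its difference in LPS response was called, at -1.15 ± 0.09. Ccr2 was 8.16 to 9.13 FPKM in WT libraries and 3.39 to 3.70 FPKM in Pim1-/- cells without LPS, a log2 difference of -1.06 ± 0.07, and after LPS averaged 0.725 and 0.364 FPKM, a difference of -0.34 ± 0.07 that was not called. Ccrl2, an atypical receptor that binds chemerin, rose with LPS by 5.98 ± 0.04 in WT and by 6.72 ± 0.04 in Pim1-/- cells. Ccr3, the receptor of CCL24, was at most 1.25 FPKM in any library.

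Among 17 genes that interleukin 4 and STAT6 induce in alternatively activated macrophages, 12 were tested. In Pim1-/- cells 4 were called lower and none higher after LPS, and likewise 4 and none without LPS, where 5.15% and 3.37% of all genes tested were called lower. The median log2 differences were -0.57 and -0.56 beside -0.03 and -0.05 over all genes. Il4ra, the receptor chain for interleukin 4, was 113, 110 and 115 FPKM in WT libraries and 13.3, 12.2 and 12.7 FPKM in Pim1-/- cells after LPS, a log2 difference of -3.05 ± 0.05 (adjusted p = 9.4e-16). Clec10a, a lectin of such macrophages, differed by -2.85 ± 0.06 after LPS and by -3.22 ± 0.06 without it. Socs1 (-1.49) and Mgl2 (-1.16) were the other called genes after LPS, and Mgl2 (-1.54), Mrc1 (-1.46) and Il4ra (-1.25) those without it. The list did not move one way, since Chil3, a chitinase-like protein of such macrophages, differed by 0.72 without LPS and by 0.71 after it, with its Pim1-/- values above all WT values in both conditions, and Irf4 and Egr2 differed by -0.75 and -0.65 without LPS and by 0.31 and 0.34 after it. None of these 3 was called between genotypes. Arg1 and Retnla, the most used markers of that state, were at most 0.0273 FPKM in any library.

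The 16 LPS response genes outside the chemokines were listed as genes that LPS induces, so their rise is no test of it. All rose past the thresholds in both genotypes, with medians of 8.28 in WT and 8.02 in Pim1-/- cells. Of all genes tested 20.1% rose in WT and 14.6% in Pim1-/- cells. Several of the 16, Il6 among them, were below 1 FPKM in every untreated library and entered the test through the LPS-treated ones. Between genotypes after LPS 3 of the 16 were called lower (Socs3, Il10 and Irf7, with -1.30, -1.12 and -1.05) and none higher, at a median of -0.58. Of all genes tested 5.15% were called lower and 3.51% higher, at a median of -0.03. Of 16 reference genes 1 (Actb) was called lower and none higher, at a median of 0.24. Tnf and Il6 averaged 3734 and 1278 FPKM in WT libraries and 3959 and 1358 FPKM in Pim1-/- cells.

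Since Actb, the gene often used to normalize PCR, itself averaged 1324 FPKM in untreated WT, 1031 in untreated Pim1-/-, 8063 in WT and 2972 in Pim1-/- cells after LPS, the genotype differences were set out under each scaling. Relative to Actb the median of all genes after LPS moved to 0.98, and relative to the estimated total fragments to 0.17. After LPS Ccl2 and Ccl7 were called higher and Ccl24 lower under all 6 scalings, with ranges of 1.49 to 2.94, 1.22 to 2.67 and -4.56 to -3.06. Ccl12 was called lower under 5 of them and was -0.03 relative to Actb. Ccl4, Ccl5, Ccl6, Ccl9 and Ccl22 turned to the higher side relative to Actb, at 1.44, 0.92, 0.89, 1.20 and 1.37, against a median of 0.98 for all genes.

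**Figure D5:**
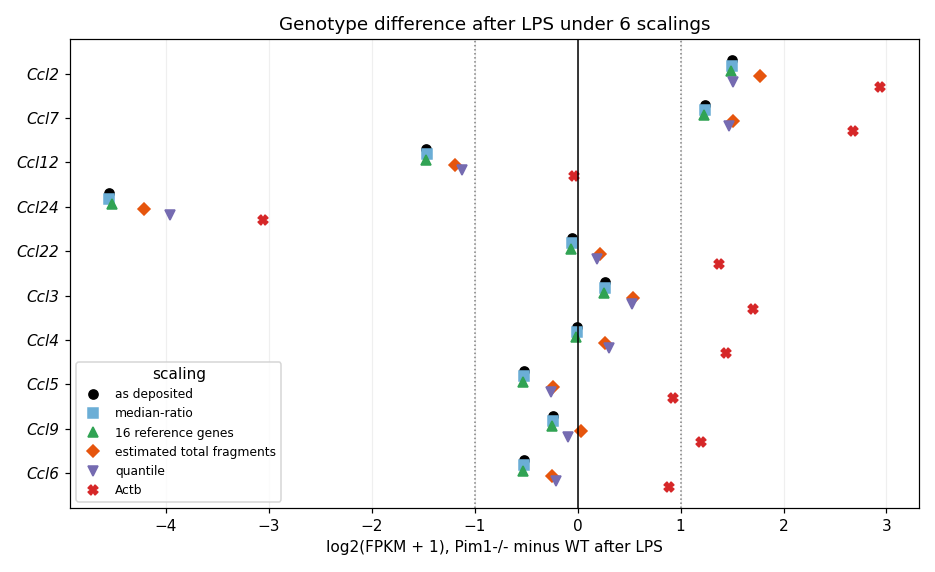
The difference in log2(FPKM + 1) between Pim1-/- and WT cells after LPS is plotted for each member under 6 scalings of the libraries, with dotted lines at 2-fold. The values as deposited, by median ratio and by the 16 reference genes lie together, and those relative to Actb lie to the right for every member, with Ccl24 at -3.06 still left of the line.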

How the data were processed

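RNA from 12 BMDM samples was made into stranded mRNA libraries and sequenced by the authors. Per the labels, reads were processed with bcl2fastq 2.20.0.422, cutadapt 1.18, TopHat2 2.0.13 and Cuffdiff 2.2.1. The deposited columns carry no unit and were read as the FPKM that the authors obtained from Cuffdiff. The labels name mm10 and the methods rat rn5, while the annotation, normalization and strand setting behind the values were not given in the sources used here.

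No scaling was added to the values. The test took the 10581 genes that reached 1 FPKM in 3 or more libraries. Their log2(FPKM + 1) entered limma 3.58.1 (run in R 4.3.3), with a mean for each of 4 groups, a mean-variance trend, and Benjamini-Hochberg adjustment over all genes tested. The comparisons of genotypes and of treatments share libraries. Relative levels were compared with exact permutation tests in scipy 1.17.1.

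Depth was estimated from low values. The value of 1 fragment was set in each library from its own lowest values over 141 genes chosen for whole multiples in untreated libraries. In the LPS-treated libraries, not used to choose the genes, 100% of 328 low values of these genes were within 0.1 of a whole number of fragments. Chance gives 20% for values that did not set the unit. The lowest of the 328 did set it, so they lie near 1 fragment by construction. Deviations of same-numbered libraries correlated over 3646 genes by 0.33, 0.37 and 0.46 between untreated genotypes and by 0.43, 0.54 and 0.68 between treatments in Pim1-/- cells, but not above 0.1 for every pair in WT cells or after LPS. The pairing comes from the values, as the sources do not say what the numbers mark, and the block was an alternative.

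Members, gene lists and tests were chosen with earlier results of these data known. Named genes are the members, Pim1, up to 4 called genes of each list and comparison, the largest changes first, and the genes nearest to each member. Markers, reference genes and listed genes that were untested or not called in the comparison described (among them Lyz2, Epx, Arg1, Retnla, Ccr3, Chil3, Irf4, Egr2, Ccl25 and Ccl27a) were named outside this rule, after their values were seen. Alternatives changed the pseudocount, filter, scaling, samples, block, trend and threshold. A listed gene is not reported here, and the counts of its list were left out with it. Protein sequences were not used here.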

Additional observations from a re-analysis of the deposited data

Results flagged for a closer look

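The response of Ccl24 to LPS differed between genotypes by the test of the difference itself, at -3.94 on log2(FPKM + 1), Pim1-/- minus WT. With 0.1 FPKM added in place of 1 it was -2.65. Ccl24 entered the test through its LPS-treated libraries, and an estimated 6 fragments stand behind it in untreated Pim1-/- cells. By the group means LPS raised it 134-fold in WT (counting interval 107 to 168) and 56.6-fold in Pim1-/- cells (25.5 to 155). These intervals overlap, so how far the fold response differed cannot be said. The response of Ccl12 differed by -1.35 in the same test. Its call was lost with 0.1 added, at -0.83 ± 0.42 (limma adjusted p = 0.0971), and relative to Actb the value turned to 0.11. Ccl12 entered the test through its LPS-treated libraries, and its untreated values rest on an estimated 0 to 5 fragments per library. Every group held 3 libraries, so single libraries that stand apart were not tested for.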

How the results depend on the processing

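The count of CC chemokines called was 9 for LPS in each genotype, and 10 when scaled to Actb, where Ccl6 was called lower, or with no fold threshold. It was 9 under every other alternative run. Between untreated genotypes 2 were called, and 3 with a pseudocount of 0.1, where Ccl24 was called lower as well. The count was 1 when scaled to Actb, 9 at a false discovery rate under 0.05 with no fold threshold, and 1 to 2 when each library was left out. After LPS 4 were called, 7 when scaled to Actb, 8 with no fold threshold, and 4 without any single library. For the difference in LPS response 2 were called. The count was 3 when quantile normalized or scaled to the estimated total fragments, where Ccl7 was called higher as well. It was 1 with a pseudocount of 0.1, 6 when scaled to Actb, 8 with no fold threshold, and 2 without any single library. With the replicate number as a block these counts were 9, 9, 2, 4 and 2, and the block changed no call of a member.

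The level of Ccl24 relative to the others kept its sign in all 4 comparisons. For LPS in WT it was -2.78 (block -2.78, leaving out a library -2.80 to -2.74), -1.84 with a pseudocount of 0.1, -1.41 against the mean of the other 9 and -3.13 against the median of Ccl2, Ccl3, Ccl4, Ccl5, Ccl7, Ccl12 and Ccl22. In the same order it was -5.15 (-5.21 to -5.10), -2.74, -5.34 and -8.27 for LPS in Pim1-/- cells, -2.43 (-2.46 to -2.39), -4.32, -0.65 and -0.91 between untreated genotypes, and -4.81 (-4.86 to -4.76), -5.23, -4.58 and -6.05 after LPS.

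Reversals concerned members with small differences, and those relative to Actb. Under quantile normalization the LPS difference of Ccl6 became -0.71 in WT and -0.40 in Pim1-/- cells, the genotype difference after LPS of Ccl4 0.30 and of Ccl22 0.19, and the difference in response of Ccl4 0.0087, of Ccl6 0.31 and of Ccl22 0.029. Scaled to the 16 reference genes, Ccl6 was -0.060 for LPS in WT and 0.12 for the difference in response. Scaled to Actb, Ccl6 was -2.31 and -1.27 for LPS in WT and Pim1-/- cells, Ccl3 0.026 and Ccl9 0.012 between untreated genotypes, Ccl4 1.44, Ccl5 0.92, Ccl6 0.89, Ccl9 1.20 and Ccl22 1.37 after LPS, and Ccl2 0.69, Ccl4 0.84, Ccl6 1.04, Ccl12 0.11 and Ccl22 0.96 for the difference in response. Scaled to the estimated total fragments, an alternative chosen after seeing the data, Ccl6 was -0.59 and -0.42 for LPS, Ccl4 0.27, Ccl9 0.032 and Ccl22 0.22 after LPS, and Ccl6 0.16 for the difference in response. Leaving out 1 library moved Ccl4 after LPS between -0.028 and 0.018 and the difference in response of Ccl6 between -0.063 and 0.034. The cause of these changes was not tested, beyond Actb itself differing between groups. FPKM carries no counts. In untreated cells the values of Ccl12 rest on a few estimated fragments, and those of Ccl24 on 81 in WT and 6 in Pim1-/- cells. Folds against them are imprecise, for Ccl24 mainly in Pim1-/- cells.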
